A study of Drosophila melanogaster with 42 samples.

Results

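Flies detect odours and tastes with 3 large families of chemoreceptors: the odorant receptors (Or), the gustatory receptors (Gr) and the ionotropic receptors (Ir). Their transcripts were followed here in adult heads and in the dissected central nervous system (CNS, brain with ventral nerve cord). The members were the probes whose gene symbol in the platform's annotation begins with Or, Gr or Ir followed by a number and a letter, plus Orco. The rule used symbols and no measured value. It found 178 probes for 165 genes, of 16320 probes on the array and 12242 named genes. They comprised 57 Or probes for 56 genes, 67 Gr probes for 56 genes and 54 Ir probes for 53 genes.

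Or proteins work in olfactory neurons of the antenna and maxillary palp, each paired with the shared subunit Orco. Gr proteins serve mostly sweet and bitter taste neurons, and a Gr pair senses carbon dioxide in the antenna. Ir proteins derive from glutamate receptors and act with the co-receptors Ir8a, Ir25a or Ir76b. Several receptors are known for roles in courtship, among them Or67d, which detects the male pheromone cis-vaccenyl acetate, Gr32a and Gr33a, which restrain courtship of males, and Ir84a, which senses food odours that promote courtship. Olfactory and taste neurons lie in the appendages of the head and body, so the dissected CNS holds their axons but not their cell bodies.

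Each of the 42 two-colour arrays compared 2 samples, and each value was a log2 ratio. In wild type, females were compared with males in Canton S heads (4 arrays), Berlin heads (4) and Canton S CNS (4). Head samples of 4 mutants were compared with Canton S flies on 4 arrays each: XX tra pseudomales (tra1/Df(3L)st-j7) and XX dsxD pseudomales (dsxD, Sb/dsxm+r15) against females, XX dsx null flies (dsxd+r3/dsxm+r15) against females, and XY dsx null flies of the same alleles against males. The tra, dsxD and XX dsx null flies also carried a marked X chromosome (y, w, ubi-gfp), and dsxD flies the dominant bristle marker Sb. Males lacking fru P1, the male-specific class of fru transcripts, were compared with wild-type males in heads (4 arrays of each allele combination) and in CNS (3 of each). By the strain labels of the channels, fru4-40/frup14 was set against Canton S and w; fruw12/frucham5 against w; Berlin in both tissues. The array titles name w Berlin on the head and CNS arrays of fru4-40/frup14 and Canton S on the CNS arrays of fruw12/frucham5. The channel labels were used here, and the control strain of these ratios is uncertain. The alleles fru4-40/frup14 also remove fru P2 transcripts, and both combinations rest on deficiencies that may leave neighbouring loci hemizygous. Mutants and wild-type flies came from different stocks, so genotype and stock background cannot be told apart. Flies were labelled 0 to 24 h old, though the titles of the 4 wild-type CNS arrays give no age. The methods give 8 to 24 h for the frozen flies whose heads were taken, and a sample held about 100 heads or 20 CNS. In these mixtures, fewer cells of a type and less RNA per cell cannot be told apart.

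All ratios below are given with the mutant over wild type, or the female over the male, so a positive value is higher in the mutant or the female. The labels do not state the direction of the deposited ratios, and it was taken from genes with a known sex bias. The yolk protein genes Yp1, Yp2 and Yp3 lay above 0 on 8 of 8 arrays of wild-type heads and below 0 on 4 of 4 arrays of tra and of dsxD pseudomales. In fru mutant heads, fru itself (probe 16173) lay below 0 on 8 of 8 arrays, with a mean of -0.85. The share of all probes with a value ran from 36.0% to 72.9% of the array. Arrays of opposite dye orientation correlated at a median r of -0.41 across all probes in the wild-type CNS and -0.52 in the fru CNS, against 0.21 to 0.57 in the 6 head comparisons. Markers of other cell types moved in wild-type and mutant heads. All 4 photoreceptor markers with a probe (trp, inaD, Arr1 and Arr2) were called higher in heads of dsx null XX flies (median log2 ratio 1.83) and of dsx null XY flies (1.40), where 11.7% and 13.4% of all tested probes were called higher. In tra and in dsxD pseudomales 2 of 4 were called higher, against 5.04% and 3.36% of all probes, in fru heads 1 of 4, against 6.77%, and in wild-type heads 0 of 4 were called. Of 5 probes for neuron markers, 2 were called lower in XX null flies, 4 in XY null flies and 1 in dsxD pseudomales, against 9.74%, 12.4% and 2.61% of all probes. In wild-type heads 3 of 5 neuron and 2 of 6 glia probes were called lower in females, against 3.98% of all probes. There 3 of 4 muscle and 4 of 5 fat body probes were called higher, against 5.1%, and 1 fat body probe lower. The fat body list includes the yolk protein genes that set the direction. Of its 5 probes, 5 were called in tra, 4 in dsxD, 4 in XX null and 5 in XY null heads. Of all probes, 9.55%, 5.97%, 21.5% and 25.7% were called there. In each of these comparisons 1 glia and 1 muscle probe were also called. In fru heads 2 of 6 glia probes were called lower, against 4.86% of all probes, and 2 of 4 muscle probes higher. Their part in the receptor results was not tested.

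The receptors were at the edge of detection. A member probe carried a value in 24.0% of all its array positions, against 55.5% for all probes of the array. No member had a value on every one of the 42 arrays, whereas 7.35% of all probes did. The median member had a value on 8 arrays, against 26 for the median probe. For 26 probes no array gave a value, and 24 genes had no measured probe. Of the 152 probes with values, 99 for 94 genes reached a value on 75% of the arrays of some comparison and were tested there, and 53 carried values but were tested nowhere. The filter kept spots with enough pixels above background, so a missing value is a spot at or near background or one removed by eye. It is not a measured zero.

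**Figure D1:**
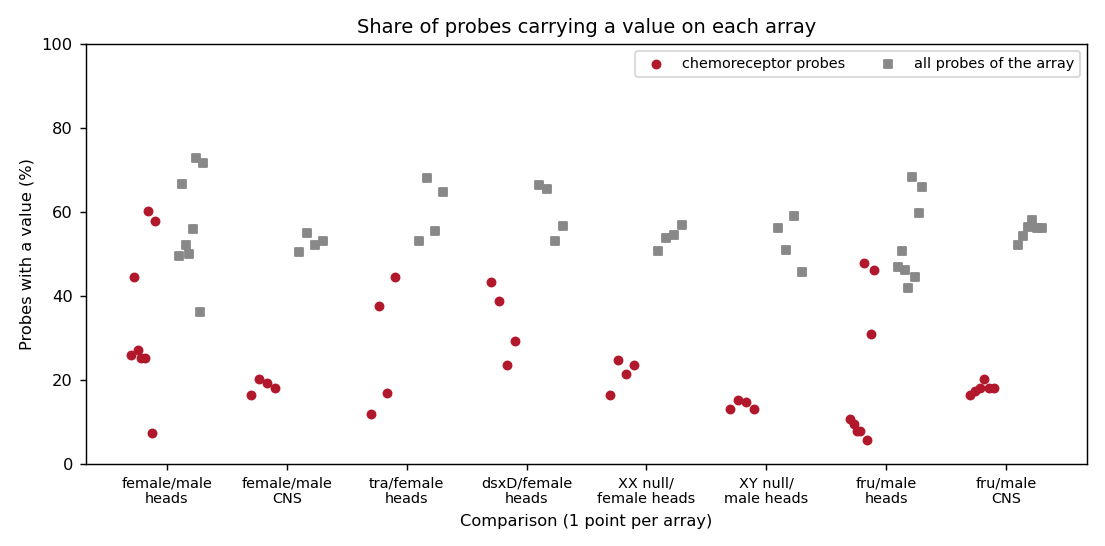
Share of probes with a value (%, vertical axis) on each of the 42 arrays, for the 178 chemoreceptor probes (circles) and all 16320 probes (squares), by comparison. On every array the receptors lay below all probes, from 5.62% on a fru w12/cham5 head array to 60.1% on a Berlin head array.

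The number of receptors seen changed from array to array more in heads than in CNS, except in dsx null XY heads. Wild-type heads ranged from 13 to 107 member probes with a value, tra heads from 21 to 79, dsxD heads from 42 to 77, dsx null XX heads from 29 to 44, dsx null XY heads from 23 to 27 and fru heads from 10 to 85. The 10 CNS arrays all lay between 29 and 36. The share of all probes with a value also ran more widely in heads, from 36.0% to 72.9%, against 50.3% to 58.1% in CNS. Within fru heads, the 4 arrays of fru4-40/frup14 had 14 to 19 receptors each, whereas those of fruw12/frucham5 had 10, 55, 82 and 85. In wild-type heads the Berlin array with 13 receptors had the fewest values of all (36.0% of probes), and the one with 107 had the most (72.9%). The number of receptors did not follow the total on every array, since XY null arrays with 7449, 9157 and 9640 values over all probes had 23, 23 and 26 receptors, and Canton S head replicate 1, with 8055 values, had 46. In Canton S, CNS arrays had 32.8 ± 2.99 member values and head arrays 54.5 ± 16.4 (SD, n = 4 each), with no overlap of the groups (29 to 36 against 45 to 79). An exact two-sided permutation test gave p = 0.0286, the smallest that 4 against 4 arrays can give, or 0.114 after adjustment over the 4 such tests run. Over all probes the arrays had 8594 ± 319 values in CNS and 8885 ± 1328 in heads (exact permutation p = 0.971). In the fru comparisons CNS arrays (29 to 36 member values, n = 6) overlapped with head arrays (10 to 85, n = 8), and the exact permutation p was 0.716. CNS RNA was amplified before labelling and head RNA was labelled directly, so tissue and labelling cannot be told apart.

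Which receptors were seen also differed between the tissues. In all, 7 member probes had values in CNS only, 98 (55.1%) on some head array and no CNS array, and 47 in both. Of all probes on the array, 21.99% had values in heads only. With 32 head arrays against 10 CNS arrays, a probe measured now and then had more chances of a value in heads. Steady detection went the other way. Values on 75% of the arrays of a tissue were carried by 25 member probes in CNS and 2 in heads. Of all probes, 49.78% reached this in CNS and 43.65% in heads. A value on every array of a tissue was carried by 15 member probes in CNS and 0 in heads. That count asks for 10 arrays in CNS and 32 in heads, and no share of all probes stands beside it. The sugar receptors were the clearest head group: their 9 probes carried values in 3.33% of CNS positions and in 40.3% of head positions. Gr64c and Gr64d (probe 4554), both of the sugar receptor cluster on chromosome 3L, had values on 0 of 10 CNS arrays and on 23 and 20 of 32 head arrays. The fructose receptor Gr43a had values on 0 CNS arrays and 21 head arrays. Gr22b and Gr22e, members of a gustatory cluster on 2L, had values on 1 and 0 CNS arrays and on 28 and 27 head arrays, the most of any receptor. Odorant receptors followed no single pattern. Or42b, an antennal receptor for fruit odours, had values on 0 CNS arrays and 22 head arrays, while Or43b, also antennal, had values on all 10 CNS arrays and 22 head arrays.

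Some probes ran against the known site of their gene. Orco, which nearly all olfactory neurons express, had values on 8 of 10 CNS arrays and on none of the 32 head arrays. Or65a and Or65c, antennal receptors of one neuron type, had values on 10 and 9 CNS arrays and none in heads, while the neighbouring Or65b had none in CNS and values on 8 head arrays. Ir84a was measured on 8 CNS arrays and 2 head arrays. The other co-receptors, with no value in CNS, were measured on 16 (Ir8a), 7 (Ir25a) and 4 (Ir76b) head arrays. The carbon dioxide receptor gene Gr63a was measured on 4 CNS and 21 head arrays, whereas its partner Gr21a gave no value on any array. Or47b and Or88a, receptors for fly-derived fatty acid esters in antennal neurons, had no value in CNS, and 8 and 0 values in heads. Or67d had 4 values in each tissue. No other measurement here checks a probe that carries values in the CNS alone, and neighbouring copies such as the Gr22, Gr64 and Or65 genes were not tested for signal shared between their probes.

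**Figure D2:**
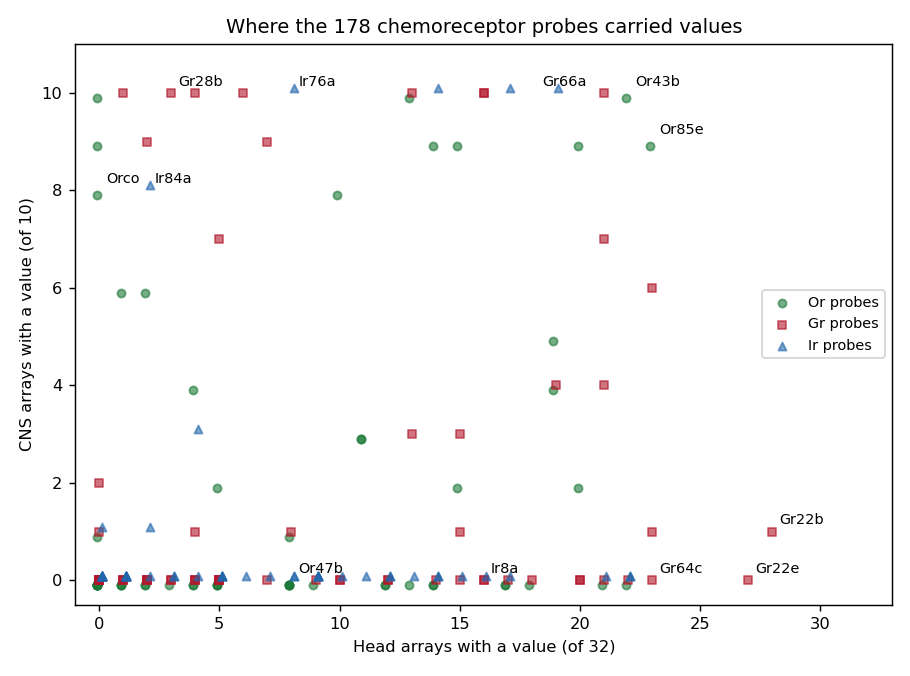
Number of head arrays (horizontal, of 32) and of CNS arrays (vertical, of 10) on which each of the 178 chemoreceptor probes had a value; Or probes are circles, Gr squares and Ir triangles. Orco lies at 8 CNS and 0 head arrays, Gr22b at 1 and 28, and 98 probes lie on the lower edge with head values only. Families are offset slightly so that their symbols do not hide each other.

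Genes with several probes were measured unevenly. For 7 genes with 20 probes in all, single probes differed in where they gave values. Of the 5 probes for Gr28b, a gene of several isoforms that serves taste as well as heat and light sensing, probe 7109 had values on 10 CNS and 3 head arrays, probe 1669 on 9 and 2, and probe 15950 on 3 and 15, while probes 4389 and 11465 had 2 and 1 values, all in heads. Of the 4 probes for Gr39a, probe 709 had values on 16 head arrays, probe 8188 on 10, probe 10908 on none and probe 13628 on 1 CNS array. Results below are therefore given by probe where a gene has more than 1. For Gr39a they are those of probe 709. Probe 8188 was tested only in dsx null XX heads, with a mean of -0.11 (SE 0.11, adjusted p = 0.582 in limma's moderated test). Its other values were 0.05 and 0.23 in Berlin heads (female over male) and -0.15 and 0.51 in tra pseudomales. It read -0.45 in dsxD pseudomales and 0.41 and -0.67 in fruw12/frucham5 heads.

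The sex comparison of heads asked which receptors differed between females and males of 2 wild-type strains. Of the 39 member probes tested, 1 (2.56%) was called, Gr39a, against 9.08% of the 8135 probes tested (5.1% higher and 3.98% lower in females). A call here is an adjusted p under 0.15 in limma's moderated test. Gr39a is a taste receptor gene known from male courtship. Its probe 709 read 0.21 and -0.06 on 2 Canton S arrays and 0.46, 0.65, 0.91 and 0.45 on the 4 Berlin arrays. It was thus higher in females on 5 of 6 arrays, and the value below 0 was from Canton S. The mean was 0.44 with an SE of 0.12 (1.35-fold, adjusted p = 0.0867). In the 4 Berlin arrays alone the mean was 0.61 (SE 0.11, adjusted p = 0.0319), and in Canton S it had too few values to test. Leaving out any of its 6 measured arrays put the probe under the 75% filter, and the methods' t-test gave an adjusted p of 0.216. In the current annotation its gene overlaps Mondo, and the probe was not placed relative to it. In the same heads 3 of 5 neuron markers were called lower and 3 of 4 muscle markers higher in females, and their part in this call was not tested.

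The other 38 tested receptors gave means between -0.25 and 0.29, none reaching 1.5-fold. The median over the tested members was 0.01, against 0.00 for all probes. Gr22b was higher in females on 6 of 7 arrays (0.43, 0.39, -0.33 and 0.22 in Canton S, 0.57, 0.63 and 0.11 in Berlin), with a mean of 0.29 (SE 0.11, adjusted p = 0.192). Its cluster neighbour Gr22e was lower on 5 of 7 arrays, with a mean of -0.25 (SE 0.11, adjusted p = 0.248). Both missed the threshold. Or42b was higher in females on 6 of 7 arrays by 0.16 (SE 0.07, adjusted p = 0.249). The co-receptor Ir8a averaged -0.05 (SE 0.10, 6 arrays), the bitter receptor subunits Gr66a 0.02 (SE 0.09, 8 arrays), Gr33a -0.05 (SE 0.07, 7 arrays) and Gr32a -0.05 (SE 0.10, 6 arrays). Gr68a, known from male taste neurons of the foreleg, averaged 0.10 (SE 0.10, 7 arrays). Fitted within strains, Canton S gave 0 limma calls among 47 members, with 1 at an unadjusted p under 0.05 (0.415% of all probes called), and Berlin 2 among 46 (3.93%). The second Berlin call was Ir94f, a name outside the rule for named genes and chosen after its values were seen. It read 0.74, 0.67 and 0.62 on 3 Berlin arrays (adjusted p = 0.0299) and 0.98 on the 1 Canton S array that measured it. No member was called for a difference between the strains (33 tested, 0 of them with an unadjusted p under 0.05, 0% of all 7391 probes called by limma).

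**Figure D3:**
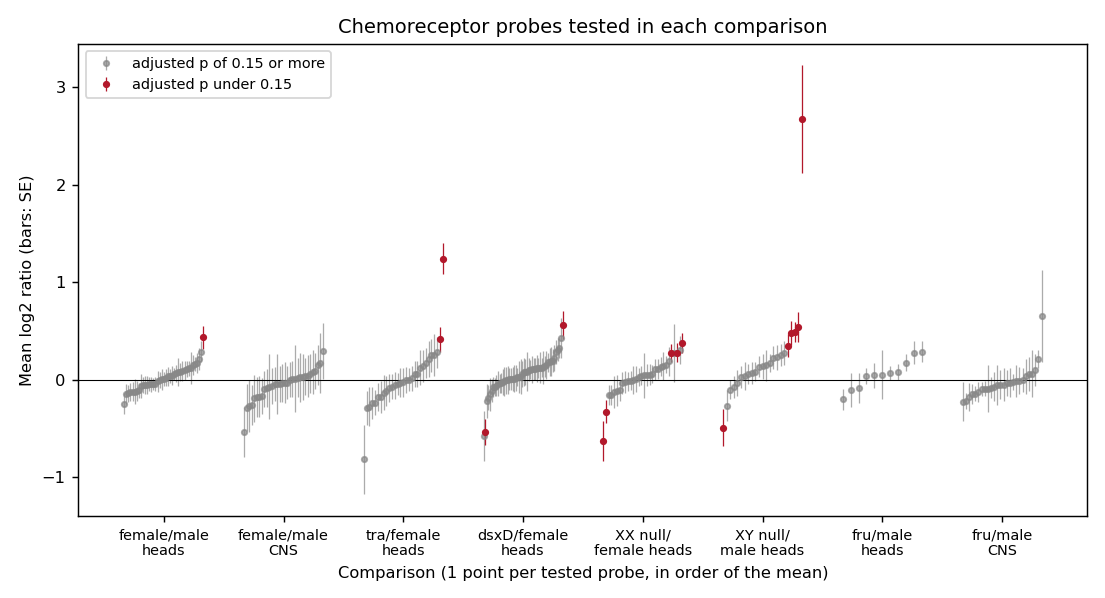
Mean log2 ratio with its SE (vertical axis) for every chemoreceptor probe tested in each of the 8 comparisons, in order of the mean within a comparison; red points passed an adjusted p of 0.15. Most means lie within 0.5 of 0, and Or82a stands apart at 1.24 in tra pseudomales and 2.67 in dsx null XY flies.

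In the CNS, no receptor was called between females and males. Of 32 probes tested 0 passed in limma, 0 had an unadjusted p under 0.05 and 0 passed the methods' t-test. By limma 0.0602% of all probes were called (0.0241% higher and 0.0361% lower in females). Or43b had the largest mean, -0.54 (SE 0.26, adjusted p = 1.00), from values of 0.51, -1.20, -0.99 and -0.47. Orco had values on 2 of the 4 arrays (0.28 and -0.14) and was not tested. Ir84a averaged 0.09 (SE 0.18), Or67d 0.02 (SE 0.20, 3 arrays), Or65a -0.19 (SE 0.24) and Gr32a -0.06 (SE 0.19). The median SE of the members was 0.21 here on 4 arrays, against 0.10 in wild-type heads on 8 arrays. For all probes it was 0.19 against 0.09. The sign of most values moved with the dye. For 24 of 32 receptors (75%) the mean of the arrays that had the female sample in Cy5 lay on the other side of 0 from the mean of those that had it in Cy3, as it did for 72.1% of all probes. Or85e, a palp receptor, read -0.83 and -0.97 on the Cy5 arrays, against 0.50 and 1.12 on the Cy3 arrays. No member differed between heads and CNS in its Canton S sex ratio (10 tested, 0 called by limma and 0 with an unadjusted p under 0.05, 0.13% of all probes called).

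XX tra pseudomales lack the splicing factor Tra and develop as males, and were compared with females in heads. Of 29 members tested, 2 (6.90%) were called, Or82a and Or13a, against 9.55% of all probes (5.04% higher and 4.51% lower in pseudomales). Or82a, an antennal receptor for the ester geranyl acetate, read 0.85, 1.72, 1.46 and 0.95. All 4 arrays were well above 0, the mean was 1.24 (SE 0.16, 2.37-fold, adjusted p = 0.00265), and the call held with each array left out (adjusted p at most 0.0119). The methods' t-test gave an adjusted p of 0.245 for it. Or13a, an antennal receptor for mushroom alcohol, read 0.59, 0.53, 0.43 and 0.11, with a mean of 0.41 (SE 0.13, adjusted p = 0.12). Its call was lost without replicate 1, 2 or 3 (adjusted p 0.269 to 0.349).

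The remaining 27 receptors of tra pseudomales did not pass. Gr93d, a bitter-type receptor, had the lowest mean, -0.82 (SE 0.36, adjusted p = 0.307), which came from values of -0.36, -2.12 and 0.02. Gr39a (probe 709) read -0.12, -0.62 and 0.01 (mean -0.24, adjusted p = 0.571). Gr22b averaged -0.24 (SE 0.13), Gr22e -0.18 (SE 0.14), Gr63a -0.04 (SE 0.11) and Gr66a 0.12 (SE 0.18). The sugar receptors Gr64b, Gr64c and Gr64d (probe 7274) averaged 0.17, 0.06 and 0.26, with SEs of 0.15, 0.13 and 0.21. The median over tested members was -0.03, against 0.00 for all probes. The median SE was 0.15 for the receptors and 0.14 for all probes.

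XX dsxD pseudomales make the male form of the transcription factor Dsx in place of the female form. They gave the largest number of testable receptors, 50, of which 2 (4.00%) were called, against 5.97% of all probes (3.36% higher and 2.61% lower in pseudomales). Gr39a (probe 709) was lower in pseudomales on all 4 arrays, at -0.83, -0.70, -0.16 and -0.46. Its mean was -0.54 (SE 0.13, 1.45-fold lower, adjusted p = 0.115). The call was lost without replicate 1, 2 or 4 (adjusted p 0.209 to 0.347). Or13a was higher on the 3 arrays that measured it, at 0.45, 0.85 and 0.39 (mean 0.56, SE 0.14, adjusted p = 0.140), and its adjusted p was 0.162 without replicate 4, the array that had no value for it. Neither probe passed the methods' t-test (adjusted p 0.371 and 0.429). In wild-type heads Or13a was tested on 7 arrays and not called. Its means there were 0.03 in Canton S and 0.04 in Berlin, female over male.

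Or82a, which was higher in tra pseudomales, was close to 0 in dsxD pseudomales. It read 0.04, -0.34, 0.38 and -0.02, with a mean of 0.01 (SE 0.13, adjusted p = 0.981). The difference of tra less dsxD was 1.23 (SE 0.22, adjusted p = 0.0691) for means of 1.24 and 0.01, and the 4 tra values all lay above the 4 dsxD values. It was the only member called for this difference among 26 tested, against 0.417% of all probes. The call was lost without tra replicate 2 or 3 or dsxD replicate 2 (difference 1.07 to 1.16, adjusted p 0.173 to 0.228). Both comparisons used Canton S females, and whether they shared extracts is not stated. Among the 48 dsxD receptors that missed the threshold, Ir52b was higher on 4 of 4 arrays, at 0.17, 0.50, 0.20 and 0.43 (mean 0.32, SE 0.11, adjusted p = 0.219), and Ir48a averaged 0.43 (SE 0.20, 3 of 4 above 0, adjusted p = 0.428). Gr63a averaged 0.31 (3 of 3, adjusted p = 0.327) and Or85e averaged -0.58 (4 of 4 below 0, adjusted p = 0.383), the last resting on a value of -1.64 beside -0.35, -0.10 and -0.23. Ir8a averaged 0.00 (SE 0.15), Gr33a 0.10 (SE 0.10), Gr66a 0.08 (SE 0.13) and Gr68a 0.03 (SE 0.17). The median over the tested members was 0.07, against 0.00 for all probes, and 35 of 50 means lay above 0.

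**Figure D4:**
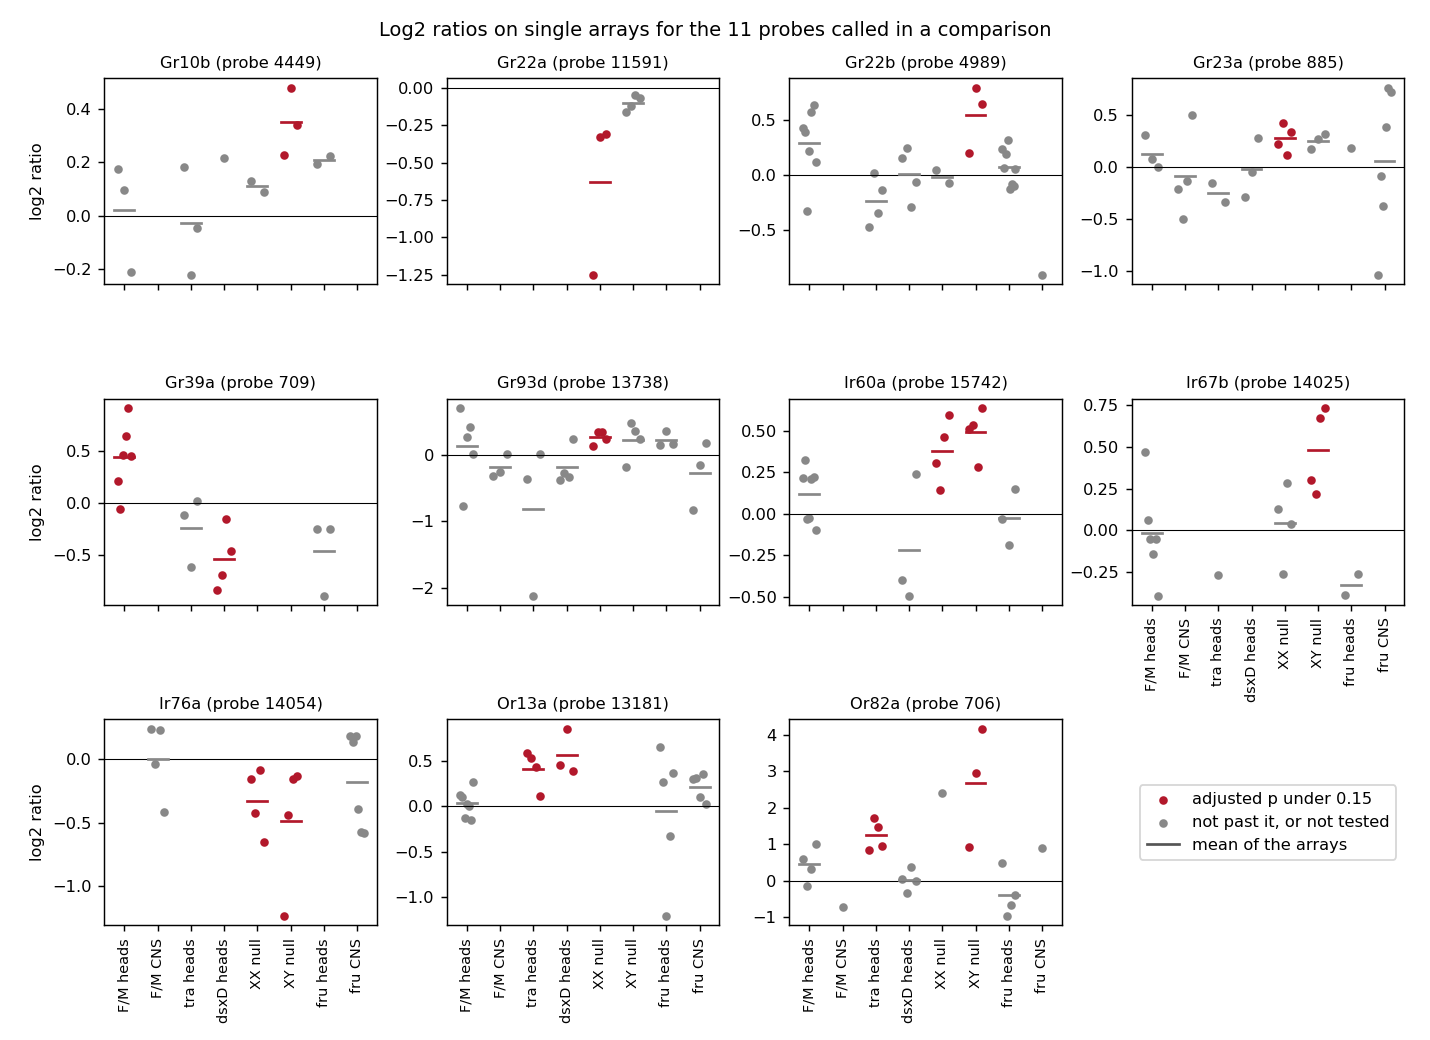
Log2 ratios on single arrays (points, vertical axis) and their mean (line) for the 11 probes called in at least 1 comparison, across the 8 comparisons in the same order as above; red points mark comparisons past an adjusted p of 0.15. Or82a lies above 0 on all 4 tra arrays and around 0 in dsxD, and Ir60a lies above 0 on all 8 arrays of dsx null flies.

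Flies without dsx develop as intersexes. In XX dsx null heads, 5 of 30 tested receptors (16.7%) were called against females, with 21.5% of all probes called (11.7% higher and 9.74% lower in the null). Ir60a, a divergent member of its family, read 0.31, 0.14, 0.46 and 0.60 (mean 0.38, SE 0.11, adjusted p = 0.0709). The gustatory receptor Gr93d read 0.13, 0.35, 0.35 and 0.25 (mean 0.27, adjusted p = 0.115), and Gr23a (probe 885) read 0.23, 0.43, 0.11 and 0.34 (mean 0.28, adjusted p = 0.123). These 3 probes lay above 0 on all 4 arrays. Gr22a read -1.25, -0.33 and -0.31 (mean -0.63, SE 0.20, adjusted p = 0.113). Ir76a, an antennal receptor for amines, read -0.15, -0.42, -0.08 and -0.65 (mean -0.33, adjusted p = 0.140). These 2 were below 0 on every array that measured them. Gr23a, Gr93d, Ir60a and Ir76a each lost the call without replicate 4 and without at least 1 other array (lowest adjusted p 0.153 when lost). Without replicate 4 no receptor was called, but no share of all probes stands beside that count. Gr22a could be tested only without the array that lacked it.

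In XY dsx null heads, 6 of 23 tested receptors (26.1%) were called against males, close to the 25.7% of all probes (13.4% higher and 12.4% lower in the null). Ir60a was again higher, at 0.51, 0.53, 0.28 and 0.63 (mean 0.49, SE 0.10, 1.41-fold, adjusted p = 0.0248), and stayed called with each array left out (adjusted p at most 0.115). Its gene overlaps nord in the current annotation, and the genes Gr93d and Ir76a overlap asRNA:CR44087 and CG14102. The probes were not placed relative to these. Or82a had 3 values, 0.91, 2.94 and 4.16, all above 0 and spread over more than 3 log2 units, with a mean of 2.67 (SE 0.55, 6.37-fold, adjusted p = 0.0297). On the XX null arrays it had a single value, 2.40, and was not tested. Too few arrays measured it for a test in wild-type heads (0.60, -0.15, 0.32 and 1.00 on 4 arrays, female over male), in fru heads (0.48, -0.97, -0.67 and -0.39, all in fruw12/frucham5) and in the CNS, with single values of -0.72 (female over male) and 0.89 (fru mutant over male). Ir67b read 0.30, 0.22, 0.67 and 0.73 (mean 0.48, adjusted p = 0.0474). The gustatory receptor Gr22b read 0.20, 0.79 and 0.64 (mean 0.54, adjusted p = 0.0716), and Gr10b (probe 4449) read 0.23, 0.48 and 0.34 (mean 0.35, adjusted p = 0.124). Ir76a was lower, at -1.24, -0.44, -0.16 and -0.13 (mean -0.49, adjusted p = 0.146). The call of Ir76a was lost without replicate 1, 2 or 4 and after centring the arrays (adjusted p = 0.152), and that of Ir67b without replicate 4 (adjusted p = 0.184). By the methods' t-test 2 receptors passed in each null comparison, of which 1 was among the calls above in XX (Gr93d, adjusted p = 0.138) and 1 in XY (Ir60a, adjusted p = 0.0928).

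Means of receptors that did not pass ran from -0.16 to 0.31 in XX null flies and from -0.27 to 0.27 in XY null flies, and some were thus as large as those of called probes such as Gr93d in XX. Gr43a averaged -0.02 in XX (SE 0.11) and 0.08 in XY (SE 0.10), and Gr64d (probe 4554) 0.06 (SE 0.09) and 0.13 (SE 0.11). Gr63a averaged -0.16 in XX (SE 0.10) and had 2 values in XY. Or85e averaged 0.00 (SE 0.15) and -0.04 (SE 0.13). The median member was at 0.04 in XX and 0.14 in XY, against -0.01 and -0.03 for all probes. No member was called for a difference between XX and XY null flies (18 tested, 2 with an unadjusted p under 0.05, 0.751% of all probes called by limma). Those 2 were Ir67b, at 0.05 in XX and 0.48 in XY, and Gr22a, at -0.63 and -0.10. Their adjusted p values were 0.816 and 0.873.

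Males lacking fru P1 were compared with wild-type males to ask which receptors depend on it in heads. Only 11 receptors reached the filter, and 0 were called by limma, with 2 at an unadjusted p under 0.05 and 0 by the methods' t-test. By limma 11.6% of all probes were called (6.77% higher and 4.86% lower in mutants). No Ir probe was among the 11. Gr68a came nearest, with 0.30, 0.68, 0.66 and 0.25 in fru4-40/frup14 and 0.01, -0.07 and 0.19 in fruw12/frucham5 (mean 0.29, SE 0.10, adjusted p = 0.160). Centring the arrays gave an adjusted p of 0.149 and a block for the allele combination 0.0656. Gr8a, known from the detection of a plant toxin, averaged 0.28 (SE 0.12, adjusted p = 0.236) and was called with that block (adjusted p = 0.107).

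The allele combinations differed from each other, for receptors and for the array as a whole. Of 10 receptors tested for the difference, 2 (20.0%) were called, against 23.9% of all probes. Gr66a read 0.00, -0.01 and 0.33 in fru4-40/frup14 and -0.34, -0.59, -0.37 and -0.43 in fruw12/frucham5. The groups did not overlap, and the difference was 0.54 (SE 0.14, adjusted p = 0.0344). For Gr68a the difference was 0.43 (SE 0.16, adjusted p = 0.109), again without overlap, and the call was lost without fru4-40/frup14 replicate 2 or 3 (adjusted p 0.199 and 0.220). Within fru4-40/frup14 alone 2 of 11 receptors were called, Gr68a and Gr8a, against 20.2% of all probes. Within fruw12/frucham5 alone 4 of 46 were called, against 17% of all probes, and all had negative means. These were Gr66a (-0.44, adjusted p = 0.0301), Gr32a (-0.56, -0.37 and -1.18, mean -0.70, adjusted p = 0.0510) and Gr39a probe 709 (-0.25, -0.89 and -0.25, mean -0.46, adjusted p = 0.127), with Ir67a (-0.24, -0.25 and -0.51, mean -0.33, adjusted p = 0.144), which was named after its values were seen. Gr66a, Gr32a and Gr39a are bitter and pheromone taste receptors, but other probes of that role did not all fall on these arrays. Gr33a read -0.10, -0.02 and -0.25, and Gr68a 0.01, -0.07 and 0.19. Gr28b probe 15950 read 0.24, -0.23, 0.17 and 0.24, and Gr39a probe 8188 read 0.41 and -0.67. None of these was called. Gr32a, Gr39a and Ir67a had no value on any array of fru4-40/frup14, so their difference between the combinations was not tested. Allele combination, labelled control strain and the w mutation differ together here and cannot be told apart, and by the titles the control strain was the same.

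In the fru CNS, 26 receptors were tested and 0 were called by limma or by the methods' t-test, with 1 at an unadjusted p under 0.05. By limma 0.269% of all probes were called (0.187% higher and 0.082% lower in mutants). All arrays of fruw12/frucham5 had the mutant in Cy5 and all of fru4-40/frup14 had it in Cy3, so dye and alleles cannot be told apart. The control strain also splits between these sets of arrays, with the strains exchanged between channel labels and titles, and cannot be told apart from them either. Orco, measured on all 6 arrays, read 0.46, 0.34 and 0.31 in fruw12/frucham5 and -0.40, -0.57 and -0.44 in fru4-40/frup14. Or43b split alike, at 0.50, 0.45 and 0.54 against -0.38, -0.42 and -0.32, and Gr66a the other way, at -1.02, -0.66 and -0.46 against 0.06, 0.29 and 0.45. Of 20 receptors with 6 values, 12 (60.0%) had all 3 arrays of one combination on the opposite side of 0 from all 3 of the other, as did 45.4% of 7663 probes. Receptors that kept their sign were Or35a, lower in mutants on 6 of 6 arrays (mean -0.22, SE 0.08, adjusted p = 0.977), and Or13a, higher on 5 of 5 (mean 0.22, SE 0.09, adjusted p = 1.00). Or85e had the largest mean, 0.66, with an SE of 0.47. No receptor of the 3 tested differed between heads and CNS in its fru effect (0 called by limma, 0 with an unadjusted p under 0.05, 0.973% of all probes called).

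**Figure D5:**
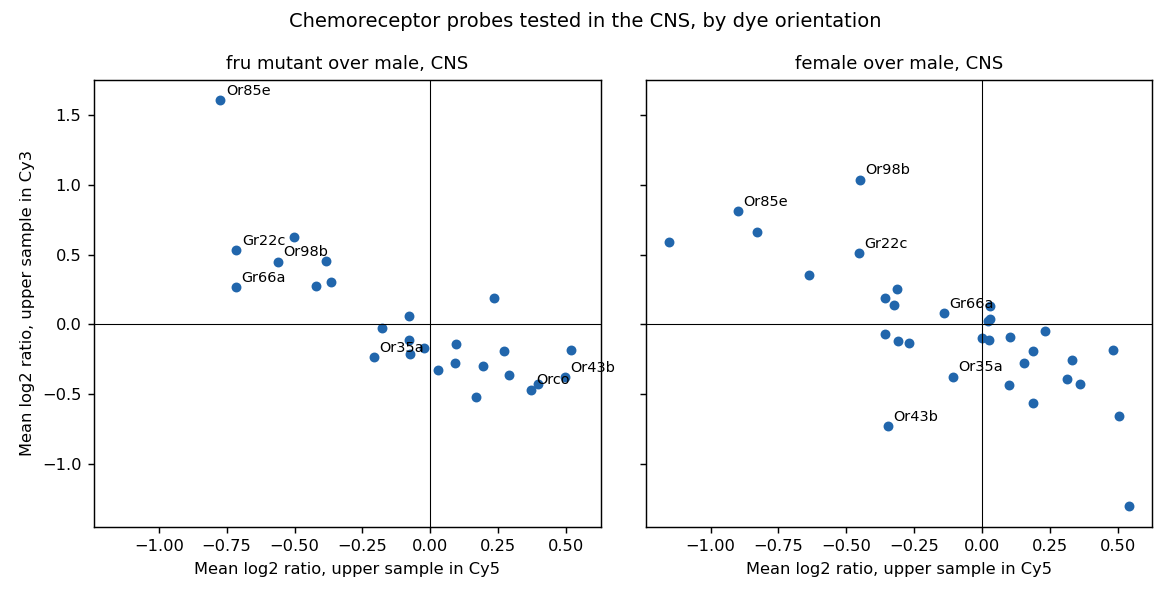
Mean log2 ratio of each chemoreceptor probe tested in the CNS on arrays with the upper sample in Cy5 (horizontal) and in Cy3 (vertical), for fru mutants over males and for females over males. Points in the upper left and lower right changed sign with the dye, which held for 20 of 26 probes in the fru CNS and 24 of 32 in the wild-type CNS.

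Across the 8 comparisons the 99 tested probes gave 240 tests and 16 calls (6.67%), spread over 11 probes, against 7014 calls in 67717 tests (10.4%) for all probes. Of these, 5 were called in a pair of comparisons each: Gr39a, Or13a, Or82a, Ir60a and Ir76a. No probe was tested in all 8 comparisons. Gr66a, Or35a, Or43b and Or85e were tested in 6, more than any other, and none of the 4 was called in any. The roles were tested in different comparisons, whose shares of all probes called ran from 0.0602% to 25.7%, so their counts are not set against each other. The antennal odorant receptors gave 4 calls in 45 tests, the bitter and pheromone taste receptors 2 in 25, the antennal ionotropic receptors 2 in 14 and the receptors without a listed role 8 in 105. Sugar receptors gave 0 in 16 tests with limma (0 at an unadjusted p under 0.05), with means from -0.11 to 0.26. Palp odorant receptors gave 0 in 11, larval ones 0 in 12, pheromone receptors 0 in 6, co-receptors 0 in 3 and Gr63a 0 in 3, where only Gr63a in dsxD pseudomales had an unadjusted p under 0.05.

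Other genes of chemosensory organs were measured more often than the receptors. The list held 26 genes (odorant-binding proteins, pheromone sensors and transcription factors of olfactory neurons), 22 with a probe, and these carried values in 39.8% to 57.4% of positions, depending on the comparison. In tra pseudomales 2 of 8 tested were called, both lower, where 4.51% of all probes were called lower. In each kind of dsx null fly 1 of 8 was called, again lower, against 9.74% of all probes in XX and 12.4% in XY. With limma 0 were called of 11 in wild-type heads (9.08% of all probes), 11 in dsxD pseudomales (5.97%), 5 in fru heads (11.6%) and 11 in each CNS comparison (0.0602% between the sexes and 0.269% in fru mutants), with 2 at an unadjusted p under 0.05 in wild-type heads (pdm3 and Obp28a) and 0 in the others. Obp28a, an abundant odorant-binding protein, fell by 1.67 on the log2 scale in tra pseudomales (SE 0.21, 3 arrays, adjusted p = 0.00311) and averaged 0.00 in dsxD pseudomales (SE 0.13). Jhedup, an esterase, fell by 0.98 in tra pseudomales (SE 0.22, adjusted p = 0.0424) and averaged -0.12 in dsxD pseudomales (SE 0.17). The difference of tra less dsxD was -1.67 for Obp28a (SE 0.26, adjusted p = 0.0347) and -0.86 for Jhedup (SE 0.32, adjusted p = 0.832). The transcription factor gene pdm3, which acts in olfactory neurons, fell by 0.28 in XX null flies (SE 0.09, adjusted p = 0.0928) and by 0.36 in XY null flies (SE 0.10, adjusted p = 0.0511).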

How the data were processed

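Per the methods, the authors scanned spotted long oligonucleotides designed on release 4.1 of the genome, removed poor spots by eye, kept spots with enough pixels above background and applied lowess. The deposited values are log2 ratios, already turned for dye orientation. The version of Bioconductor is not given in the sources used here. The tra and dsx ratios, deposited as wild type over mutant, were turned round, and nothing was normalised again.

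Each comparison was tested in R 4.3.3 with limma 3.58.1 (lmFit, eBayes) on all probes with a value on 75% or more of its arrays, a mean log2 ratio against 0, Benjamini-Hochberg adjustment over all of them and a threshold of 0.15. Differences between 2 comparisons were fitted with both sets of arrays. The code was tested on simulated ratios. Each comparison had 4 to 8 arrays, which limits the precision, and p-values measure the spread between their samples. Same-numbered arrays of tra and dsxD, and of the 2 null genotypes, deviated together (r 0.195 to 0.477 and 0.320 to 0.505) and share a dye orientation, so a replicate block was also fitted.

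Probe symbols came from GEO's platform annotation, and 177 of 178 member probes matched the current gene table (chromosome arms, overlaps). No sequences or coordinates were used. Named were probes called in any comparison or difference, the 3 largest means of each comparison, receptors with known roles and called genes of the chemosensory list. Or42b, Ir94f, Ir67a, Ir52b and Ir48a were named after their values were seen. Members and lists were chosen with earlier results of these data known.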

Additional observations from a re-analysis of the deposited data

Results flagged for a closer look

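For each of the 11 called probes, and the 2 called for a difference alone, the array values of every comparison with a test and 4 or more values were searched for 1 array far from the rest, as were the receptor counts of each group, 45 sets of values in all. Chance marks about 1 in 20 such sets. On dsxD replicate 4, Gr93d read 0.24, while the other 3 arrays lay between -0.37 and -0.27. On Canton S head replicate 3, Gr66a read -0.51, with the other 7 arrays between -0.06 and 0.23, and Gr68a read -0.50, with the other 6 between 0.08 and 0.36. Canton S head replicate 2 had 79 receptors with a value, against 45 to 48 on the other 3 arrays.

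The effects of 3 genes differed between groups by a test of the difference itself. Or82a differed between tra and dsxD pseudomales by 1.23, Gr66a between fru4-40/frup14 and fruw12/frucham5 heads by 0.54, and Gr68a between the same alleles by 0.43. Of all probes, 0.417% were called for tra less dsxD and 23.9% for the fru alleles, where 2 of 10 receptors were called. The calls of Or82a and Gr68a were lost without some single arrays. Allele combination and labelled control strain cannot be told apart.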

How the results depend on the processing

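Of 1206 values of named probes under an alternative, 1144 kept their direction and side of the threshold, 45 no longer passed, 17 newly passed and 0 reversed. Counts of called receptors were small, and many moved. Where no share of all probes stands beside a count, a change of the receptors cannot be told from one of the whole array. In wild-type heads (1 in the main analysis) 0 were called at a threshold of 0.05, with a value on every array, by the methods' t-test and in Canton S alone, and 2 with no filter beyond 2 values, after quantile normalisation, with dye orientation as a covariate and in Berlin alone. Of all probes, 0.415% were called in Canton S alone and 3.93% in Berlin alone. In tra pseudomales (2) the threshold of 0.05 left 1 and the methods' t-test 0. In dsxD pseudomales (2) these left 0 and 0, a value on every array 1, no filter 5 and the dye covariate 7, with 20.4% of all probes then called. In XX null flies (5) the threshold of 0.05 left 0 and the t-test 2. In XY null flies (6) they left 3 and 2, a value on every array 3, and the dye covariate gave 11 (50.5% of all probes). In fru heads (0) no filter, centred medians and quantile normalisation gave 1 each and the allele block 2. The arrays of 4-40/p14 alone gave 2 (20.2% of all probes) and those of w12/cham5 alone 4 (17%). For the difference between fru allele combinations (2), a value on every array gave 1, Gr22b, the only receptor then left to test. Counts with 1 array left out ran from 0 to 5 in wild-type heads (5 of 28 tested without Canton S replicate 3, with 16.4% of all probes called), 1 to 2 in tra, 0 to 1 in dsxD, 0 to 3 in XX null (0 without replicate 4), 1 to 4 in XY null (1 without replicate 4) and 0 to 1 in fru heads (1 without w12/cham5 replicate 7), from 0 to 1 for the difference of tra less dsxD, 0 to 2 for that of the fru alleles and 0 elsewhere. The alternatives with a stricter filter test fewer probes by construction, and for the rest the cause was not tested. The leave-one-out fits of the differences were chosen after seeing the data.

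With the replicate block, 1 receptor was called for tra less dsxD and 0 for XX less XY null flies, as without it, so it changed no call. Symbols of the current gene table added 1 probe, Ir93a, and gave a share of values of 23.9%. Low signal limits these results: the receptors lie near background, and a missing value does not measure absence.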
